A study of Mus musculus with 14 samples.

Results

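Lung tumor nodules from mice given T-DM1 were compared directly with nodules from mice given mobocertinib, by the deposited RNA-seq counts of 3 libraries from each treatment, 6 of the 14 libraries in the series. The libraries were taken by the treatment in their titles. All nodules came from C57BL/6 mice whose genotype is given as HER2 Exon20YVMA, an insertion in the kinase domain of the receptor. The T-DM1 group had long-term T-DM1, an antibody to HER2 coupled to the microtubule poison DM1. The mobocertinib group had long-term mobocertinib (TAK-788), an oral kinase inhibitor of exon 20 insertion mutants of EGFR and HER2. Further groups had both drugs in combination (n = 3), acquired resistance to mobocertinib monotherapy (n = 3) or vehicle (n = 2). The combination and resistant libraries entered the model for its estimate of spread and are given here as values. Vehicle libraries were not used, so nothing below says how either drug changed untreated tumors. The labels state no dose, age or sex, no promoter for the allele, and not whether each library came from its own animal. The p-values therefore measure only the spread between these samples, which may be technical.

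HER2, encoded by Erbb2, pairs with EGFR or ERBB3 and passes its signal down the RAS-ERK and PI3K-AKT pathways. ERK activity raises transcription of its own brakes, the dual-specificity phosphatases and the Sprouty and SPRED proteins, and of cyclin D1, through which cells enter the cycle. AKT keeps FOXO transcription factors out of the nucleus, so FOXO target genes are usually higher where AKT is inactive. A kinase inhibitor acts on the receptor's catalytic domain. T-DM1 instead has to be bound, taken up and digested in the lysosome, and the DM1 it releases binds tubulin and blocks mitosis.

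The libraries held 22.3, 31.3 and 23.1 M counts in the T-DM1 group and 20.3, 23.1 and 24.8 M in the mobocertinib group. All pairs of libraries within a group differed by more than counting error, and none was a repeat deposit. The chi-square over its degrees of freedom was 504 for T-DM1 libraries 1 and 2, 301 for libraries 2 and 3 and 174 for libraries 1 and 3, against 126 to 233 among mobocertinib libraries. The Pearson r of log2 CPM across genes, which are not independent replicates, was 0.916, 0.959 and 0.949 for the same T-DM1 pairs and 0.956 to 0.966 among mobocertinib libraries. T-DM1 libraries 1 and 2 were thus the least alike. Xist, expressed from the inactive X chromosome, was at 45.9, 22.3 and 0.560 CPM in T-DM1 nodules and 0.0554, 2.39 and 0.190 CPM in mobocertinib nodules. The Y-linked gene Ddx3y was at 2.80, 6.77 and 22.8 CPM in T-DM1 nodules and 20.2, 12.4 and 44.5 CPM in mobocertinib nodules. The nodules thus differ in sex-linked RNA in a way that partly follows the treatments, and its part in the results was not tested.

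Of 16875 genes tested, 2 were higher in T-DM1 nodules at an adjusted p below 0.05 (edgeR's quasi-likelihood test with Benjamini-Hochberg adjustment), which is 0.0119% of all genes. Both, Dusp6 and Dusp5, encode phosphatases that switch off ERK and are themselves induced by it. The count of lower genes was 0. At an unadjusted p below 0.05, 1139 genes were higher in T-DM1 nodules (6.75%) and 701 lower (4.15%). On the same counts DESeq2 called 482 genes (2.86%), with 363 higher (2.15%) and 119 lower (0.705%). The limma-voom test called 5 (0.0296%), with 4 higher (0.0237%) and 1 lower (0.00593%). With 3 libraries a group, 1647 genes lay higher (9.76%) and 1556 lower (9.22%) in all T-DM1 libraries than in all mobocertinib libraries. The median log2 fold change of all genes was 0.01. The adjusted calls are therefore few, and the gene groups below are described mainly by values, by their counts at an unadjusted p below 0.05 and by these background shares.

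**Figure D1:**
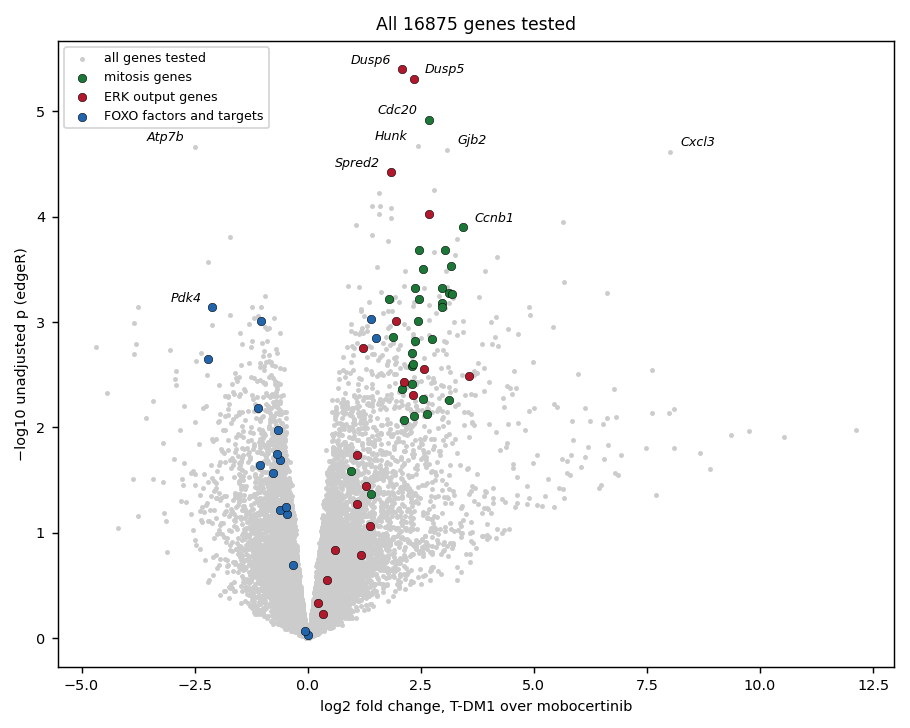
Each point is a gene. The horizontal axis gives the log2 fold change of T-DM1 over mobocertinib and the vertical axis the −log10 of the unadjusted edgeR p, with mitosis genes in green, ERK output genes in red and FOXO factors and targets in blue. Dusp6 and Dusp5 lie at the top, all 30 mitosis genes lie to the right of 0, and Pdk4 is among the FOXO targets on the left.

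Genes induced by ERK were the group that held both calls. Dusp6, whose product removes phosphates from ERK in the cytoplasm, was at 198, 153 and 178 CPM in T-DM1 nodules and 38.1, 36.8 and 50.4 CPM in mobocertinib nodules. The groups did not overlap, and each T-DM1 library lay far above the highest mobocertinib library. Dusp6 (chr10:99263231-99267489, mm10) rose by 2.07 ± 0.252 on the log2 scale (SE), 4.21-fold (edgeR adjusted p = 0.0414). Dusp5, whose product acts on ERK in the nucleus, was at 24.9, 36.1 and 27.1 CPM in T-DM1 nodules and 5.26, 7.49 and 4.45 CPM in mobocertinib nodules. These groups were likewise apart. Dusp5 (chr19:53529109-53542431) rose by 2.36 ± 0.292, 5.12-fold (edgeR adjusted p = 0.0414). Both adjusted p-values rest close to the threshold: without T-DM1 library 2 they were 0.0415, and without any other of the 6 libraries both genes missed it, with the highest values 0.280 for Dusp6 without mobocertinib library 1 and 0.389 for Dusp5 without mobocertinib library 3. The log2 fold changes in these fits stayed between 1.98 and 2.23 for Dusp6 and between 2.18 and 2.60 for Dusp5.

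All 19 ERK output genes tested had a log2 fold change above 0, with a median of 1.37 against 0.01 for all genes. Of them 12 were higher at an unadjusted p below 0.05 and 0 lower, 13 did not overlap between the groups, and DESeq2 called 10. Of all genes, 6.75%, 9.76% and 2.15% were higher on these measures. Dusp4, another ERK phosphatase gene, was at 32.6, 56.3 and 40.3 CPM in T-DM1 nodules and 4.15, 9.96 and 6.08 CPM in mobocertinib nodules (log2 fold change 2.68 ± 0.455; edgeR adjusted p = 0.106). Spred2, which encodes an inhibitor of RAF activation, was at 42.2, 44.9 and 42.7 CPM in T-DM1 nodules and 10.4, 12.1 and 13.8 CPM in mobocertinib nodules (1.84 ± 0.282; edgeR adjusted p = 0.0794). The T-DM1 values of Spred2 were nearly alike and stood clear of the mobocertinib values. Etv4, an ETS transcription factor gene downstream of ERK, was at 10.4, 20.4 and 14.6 CPM in T-DM1 nodules and 3.43, 2.47 and 1.71 CPM in mobocertinib nodules (2.58 ± 0.680; edgeR adjusted p = 0.218). Ccnd1, the cyclin D1 gene, was at 982, 690 and 824 CPM in T-DM1 nodules and 268, 186 and 191 CPM in mobocertinib nodules (1.95 ± 0.443; edgeR adjusted p = 0.182). Neither group of libraries overlapped the other for either gene. Log2 fold changes of Etv1, Fosl1, Phlda1 and Spry4, also ERK targets, were 2.12, 3.57, 2.33 and 1.23, with no overlap in any of them. Etv5 differed from its relatives: it was at 20.1, 149 and 38.1 CPM in T-DM1 nodules and 9.80, 37.2 and 43.8 CPM in mobocertinib nodules, so the groups overlapped and T-DM1 library 2 alone lay high. Without that library its log2 fold change was −0.06, against 1.19 with it. Myc, the growth-promoting transcription factor gene, was at 33.6, 39.0 and 69.3 CPM in T-DM1 nodules and 16.7, 16.7 and 7.94 CPM in mobocertinib nodules (1.78 ± 0.474; edgeR adjusted p = 0.218).

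Among 20 immediate early genes, the first to be transcribed after growth factor signals, 6 were higher and 1 lower at an unadjusted p below 0.05. The shares of all genes were 6.75% and 4.15%, and the list's median was 0.42. Nr4a1, a nuclear receptor gene of this class, was at 22.8, 58.3 and 19.7 CPM in T-DM1 nodules and 7.48, 8.48 and 11.7 CPM in mobocertinib nodules, with no overlap (1.87 ± 0.399; edgeR adjusted p = 0.174).

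In the combination nodules Dusp6 was at 58.8, 52.8 and 45.3 CPM and in the resistant nodules at 47.6, 90.6 and 74.7 CPM. Every one of these 6 values lay below the lowest T-DM1 value of 153 CPM. Dusp5 was at 11.5, 10.4 and 8.27 CPM in the combination nodules and 8.42, 5.42 and 7.07 CPM in the resistant nodules, again all below the T-DM1 libraries. Resistant libraries were more spread for other ERK genes, with Ccnd1 at 205, 345 and 768 CPM.

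**Figure D2:**
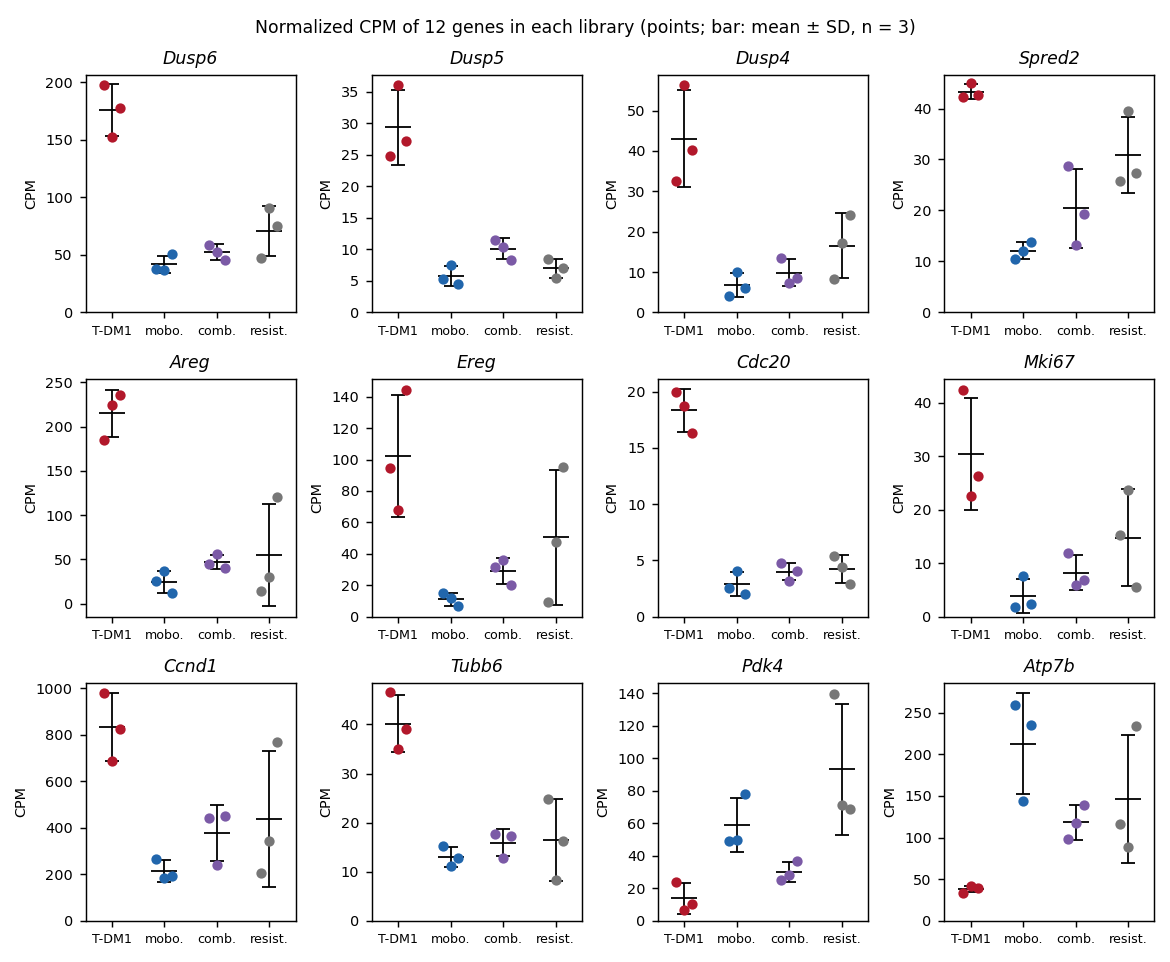
Normalized CPM of 12 genes (vertical axes, linear) in each library of the T-DM1, mobocertinib, combination and resistant groups, with points for libraries and bars for the mean ± SD (n = 3). The T-DM1 points lie above all mobocertinib points for 10 of the genes, from Dusp6 to Tubb6, and below them for Pdk4 and Atp7b.

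The receptors themselves showed no difference of that size. Erbb2 was at 344, 361 and 392 CPM in T-DM1 nodules and 421, 513 and 296 CPM in mobocertinib nodules, with the T-DM1 values inside the mobocertinib range. Its log2 fold change was −0.17 ± 0.426, with a 95% interval from −1.10 to 0.77 (edgeR adjusted p = 0.932). The symbol is the mouse gene, and the labels do not say from which species the mutant allele came. Egfr was at 44.3, 9.28 and 32.4 CPM in T-DM1 nodules and 18.9, 11.4 and 14.3 CPM in mobocertinib nodules. Erbb3, a partner with little kinase activity of its own, was at 157, 211 and 199 CPM in T-DM1 nodules and 210, 369 and 256 CPM in mobocertinib nodules. Intervals of both genes included 0, from −0.26 to 2.15 for Egfr and from −1.50 to 0.39 for Erbb3.

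Ligands of EGFR had the widest differences in the family. Areg, the amphiregulin gene, was at 185, 225 and 236 CPM in T-DM1 nodules and 24.98, 36.8 and 12.01 CPM in mobocertinib nodules. Ereg, the epiregulin gene, was at 94.7, 67.9 and 145 CPM in T-DM1 nodules and 14.8, 11.7 and 6.65 CPM in mobocertinib nodules. For both, the lowest T-DM1 library lay well above the highest mobocertinib library, with log2 fold changes of 3.13 ± 0.674 for Areg and 3.21 ± 0.682 for Ereg (edgeR adjusted p = 0.174 each). Neither passed the test in edgeR, while the DESeq2 adjusted p was 0.000149 for Areg and 0.00011 for Ereg. Hbegf was at 58.9, 76.7 and 123 CPM in T-DM1 nodules and 33.3, 34.4 and 18.4 CPM in mobocertinib nodules (1.59 ± 0.467), and Btc, the betacellulin gene, had a log2 fold change of 1.47 ± 0.369. Tgfa, another EGFR ligand gene, was at 46.1, 38.8 and 46.6 CPM in T-DM1 nodules and 37.8, 37.04 and 34.4 CPM in mobocertinib nodules, a log2 fold change of 0.27 ± 0.311. On the length-adjusted TPM scale, Areg was the most abundant of these ligands in both groups, with a mean of 226 TPM in T-DM1 nodules and 25.3 TPM in mobocertinib nodules, against 46.0 and 14.7 TPM for Hbegf. Over the 12 receptor and ligand genes tested of 15, 4 were higher at an unadjusted p below 0.05 and 0 lower, with a median of 0.998. The shares of all genes at that threshold were 6.75% and 4.15%. Erbb4, Epgn and Nrg3 were too low to be tested.

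The letters ahead of Areg are shown because cyclic-AMP and growth factor signals are known to reach this gene through a cyclic-AMP response element. The window runs from 250 bases before to 50 bases after the RefSeq start site on GRCm38.p6, chr5:91139349-91139648, plus strand, with the element TGACGTCA in capitals.

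Areg: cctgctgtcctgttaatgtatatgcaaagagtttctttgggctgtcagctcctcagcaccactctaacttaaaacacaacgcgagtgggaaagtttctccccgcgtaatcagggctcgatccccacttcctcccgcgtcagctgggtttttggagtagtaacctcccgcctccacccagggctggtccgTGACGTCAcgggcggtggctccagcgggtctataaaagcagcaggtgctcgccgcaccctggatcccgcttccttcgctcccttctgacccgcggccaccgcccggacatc

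The element begins at position −61, counted back from the start site. TGACGTCA, which reads the same on both strands, was found in 3.04% of the 12242 windows of tested genes, and the match is a description of the letters, not a measured site.

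Brakes on ERBB receptors differed little as a list. Of 11 tested, 0 were higher and 2 lower at an unadjusted p below 0.05, against 6.75% and 4.15% of all genes. The median was −0.11, with 4 members above 0 and 7 below, and DESeq2 called 0. With a single library left out, 0 to 1 were higher and 1 to 2 lower at that threshold, with medians from −0.20 to −0.01. Cblb, which encodes a ubiquitin ligase, was at 26.2, 22.3 and 33.4 CPM in T-DM1 nodules and 53.8, 37.04 and 55.5 CPM in mobocertinib nodules, with no overlap (−0.84 ± 0.258; edgeR adjusted p = 0.244). Lrig2, the other, had a log2 fold change of −0.50 ± 0.203. Errfi1, which encodes the feedback inhibitor MIG6, was at 76.9, 118 and 73.3 CPM in T-DM1 nodules and 125, 87.7 and 272 CPM in mobocertinib nodules, and the groups overlapped. Lrig1 had a log2 fold change of −0.12 ± 0.358.

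Genes of mitosis were higher in every T-DM1 library than in every mobocertinib library, for 30 of 30 members. This compares with 9.76% of all genes. All 30 were higher at an unadjusted p below 0.05, against 6.75% of all genes. The median log2 fold change was 2.46, with a range from 0.96 to 3.44. In edgeR 0 passed the adjusted threshold. In limma-voom 1 was called higher, against 0.0237% of all genes, and in DESeq2 28, against 2.15%. Their summed level was 448, 258 and 262 CPM in T-DM1 nodules and 41.9, 98.1 and 46.1 CPM in mobocertinib nodules. T-DM1 library 1 lay highest and mobocertinib library 2 was the highest of its group, yet the groups stayed apart. With any 1 of the 6 libraries left out, 28 to 30 members kept an unadjusted p below 0.05, with medians from 2.21 to 3.01. The sum ran from 81.7 to 123 CPM in combination nodules and from 72.0 to 186 CPM in resistant nodules. In bulk tissue, fewer cells of a kind and less RNA per cell cannot be told apart.

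Cdc20, whose product switches on the anaphase-promoting complex, was at 20.0, 18.7 and 16.3 CPM in T-DM1 nodules and 2.55, 4.06 and 2.01 CPM in mobocertinib nodules. Among all genes its p ranked 3, with a log2 fold change of 2.67 ± 0.363 (edgeR adjusted p = 0.0579). Mki67, the proliferation antigen Ki-67, was at 42.4, 22.6 and 26.2 CPM in T-DM1 nodules and 1.72, 7.53 and 2.39 CPM in mobocertinib nodules (2.96 ± 0.646; edgeR adjusted p = 0.174). Ccnb1, cyclin B1, was at 9.23, 5.03 and 5.13 CPM in T-DM1 nodules and 0.388, 0.996 and 0.380 CPM in mobocertinib nodules, the widest difference of the list (3.44 ± 0.606; edgeR adjusted p = 0.112). In all 3 genes the groups were separate, although single mobocertinib libraries differed up to several-fold from each other. The kinase genes Cdk1, Plk1 and Aurkb had log2 fold changes of 2.45 ± 0.522, 2.96 ± 0.612 and 2.56 ± 0.746. Values of Ube2c, the ubiquitin-conjugating enzyme that works with the anaphase-promoting complex, Birc5 (survivin), Top2a (a topoisomerase) and Ccna2 (cyclin A2) were 3.03 ± 0.565, 2.75 ± 0.658, 2.38 ± 0.574 and 2.30 ± 0.598. The smallest difference, 0.96 ± 0.374, was that of the spindle checkpoint gene Mad2l1.

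**Figure D3:**
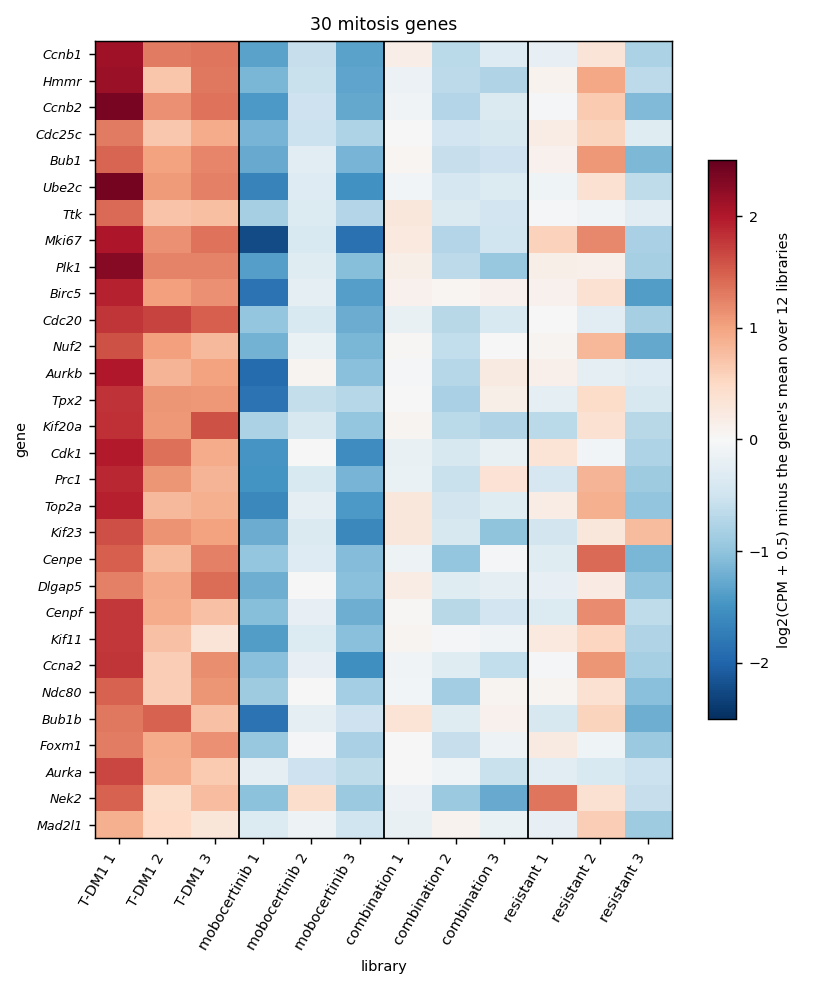
Rows are the 30 mitosis genes, ordered by log2 fold change, and columns are the libraries of 4 groups. Color gives log2(CPM + 0.5) after centering each gene on its average across 12 libraries. The 3 T-DM1 columns are red throughout, most in library 1, and the mobocertinib columns are mainly blue, most in libraries 1 and 3. By summed level the combination libraries lay below T-DM1 and overlapped mobocertinib. Combination libraries 2 and 3 were at 81.7 and 94.5 CPM, against 98.1 CPM in mobocertinib library 2.

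Promoters of Cdc20 and Plk1 are shown for the letters that mitotic genes are known to share: the cell cycle genes homology region (CHR), TTTGAA, and the CCAAT box, both in capitals. The windows are RefSeq's on GRCm38.p6, chr4:118437294-118437593 on the minus strand for Cdc20 and chr7:122159185-122159484 on the plus strand for Plk1, each read 5′ to 3′ from 250 bases before the start site to 50 after.

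Cdc20: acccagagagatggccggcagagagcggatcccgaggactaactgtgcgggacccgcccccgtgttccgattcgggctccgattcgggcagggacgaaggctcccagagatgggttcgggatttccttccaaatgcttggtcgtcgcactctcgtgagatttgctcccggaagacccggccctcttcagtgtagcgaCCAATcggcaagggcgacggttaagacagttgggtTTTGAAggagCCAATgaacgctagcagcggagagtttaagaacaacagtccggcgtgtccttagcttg

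Plk1: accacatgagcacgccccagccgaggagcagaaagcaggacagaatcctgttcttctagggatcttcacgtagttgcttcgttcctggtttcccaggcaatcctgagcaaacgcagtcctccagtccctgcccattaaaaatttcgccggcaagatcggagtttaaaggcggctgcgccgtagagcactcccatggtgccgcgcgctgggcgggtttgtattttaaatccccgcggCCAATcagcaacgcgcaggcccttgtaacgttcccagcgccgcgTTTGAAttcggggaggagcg

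In Cdc20 the TTTGAA begins at −18 and CCAAT at −53 and −8. In Plk1 TTTGAA begins at 31, counting the start site as the first base, and CCAAT at −14. Of the 23 mitosis genes with a window, 16 held TTTGAA on either strand (69.6%), against 12.5% of the windows of all genes tested. CCAAT stood in 19 of 23 (82.6%), against 38.1%. Of the 23 DNA replication genes with a window, 4 held TTTGAA (17.4%) and 14 held CCAAT (60.9%). These are matches of letters, and no binding was measured.

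Replication genes differed less than mitosis genes. Of 30 tested, 10 were higher and 0 lower at an unadjusted p below 0.05, against 6.75% and 4.15% of all genes. The median was 0.66. With no overlap 16 lay higher and 1 lower, against 9.76% and 9.22%. Uhrf1, which encodes a protein that guides maintenance methylation of DNA, was at 21.4, 9.18 and 13.01 CPM in T-DM1 nodules and 2.16, 2.75 and 1.41 CPM in mobocertinib nodules (2.78 ± 0.447; edgeR adjusted p = 0.101). Mcm2, a subunit of the replicative helicase, was at 31.9, 23.2 and 20.4 CPM in T-DM1 nodules and 10.7, 13.4 and 10.03 CPM in mobocertinib nodules (1.14 ± 0.236). The groups did not overlap for these genes. Of 15 cyclin and CDK inhibitor genes, 3 were higher and 1 lower at an unadjusted p below 0.05, beside the same shares of 6.75% and 4.15%. Ccnd2, cyclin D2, was at 865, 146 and 745 CPM in T-DM1 nodules and 141, 133 and 127 CPM in mobocertinib nodules, so that T-DM1 library 2 lay just above the mobocertinib range. Cdkn1a, the p21 gene, was at 277, 443 and 336 CPM in T-DM1 nodules and 581, 415 and 233 CPM in mobocertinib nodules, with overlap, and 1 of 20 p53 target genes was higher and 1 lower at an unadjusted p below 0.05.

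Tubulin genes, which encode the target of DM1, were higher in part. Of 17 tested, 7 were higher and 0 lower at an unadjusted p below 0.05, against 6.75% and 4.15% of all genes. DESeq2 called 3 higher, against 2.15%. The median was 0.53, with 11 members above 0 and 6 below, down to −0.83. With no overlap 6 lay higher and 1 lower, against 9.76% and 9.22% of all genes. Tubb6, a beta-tubulin gene, was at 46.5, 34.96 and 39.0 CPM in T-DM1 nodules and 15.2, 11.1 and 12.8 CPM in mobocertinib nodules (1.63 ± 0.340; edgeR adjusted p = 0.174). Tubb2b was at 12.6, 15.4 and 13.8 CPM in T-DM1 nodules and 3.66, 4.50 and 2.81 CPM in mobocertinib nodules (1.93 ± 0.409; edgeR adjusted p = 0.174). In both, T-DM1 libraries lay close together and above all mobocertinib libraries. Per length, these were minor members: the means of Tubb6 were 29.3 TPM in T-DM1 nodules and 10.9 TPM in mobocertinib nodules, and those of Tubb2b 13.7 and 3.83 TPM. Tubb4b was the most abundant, at 590 TPM in T-DM1 nodules and 358 TPM in mobocertinib nodules, with a log2 fold change on counts of 0.70 ± 0.314. Tuba1b followed at 410 and 269 TPM, Tuba1c at 220 and 94.8 TPM and Tubb5 at 199 and 137 TPM, T-DM1 first. Their log2 fold changes on counts were 0.49 ± 0.222, 1.35 ± 0.403 and 0.53 ± 0.216. Tuba1a had a log2 fold change of 0.55 ± 0.405. Tubb3, often studied in resistance to microtubule drugs, was near the floor at 1.58 TPM in T-DM1 nodules and 0.707 TPM in mobocertinib nodules. Tubulin genes are near-identical in places, so reads could be split between them. In combination nodules, Tubb2b stood at 12.3, 10.2 and 15.3 CPM and Tubb6 at 17.7, 12.8 and 17.3 CPM.

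Lysosomal genes, needed to release DM1, showed few differences gene by gene. Of 37 tested, 0 were higher and 2 lower at an unadjusted p below 0.05, against 6.75% and 4.15% of all genes. The median was −0.17, with 26 members below 0 and 11 above, and DESeq2 called 0. Their summed level was 10837, 22070 and 13379 CPM in T-DM1 nodules and 18321, 19589 and 18507 CPM in mobocertinib nodules. T-DM1 libraries 1 and 3 thus lay below every mobocertinib library and library 2 above. With a single library left out, 0 to 6 members were lower at an unadjusted p below 0.05, with medians from −0.34 to −0.05. Slc46a3, which encodes the lysosomal exporter of T-DM1 breakdown products, was at 20.5, 19.3 and 20.8 CPM in T-DM1 nodules and 39.3, 29.3 and 37.1 CPM in mobocertinib nodules. The 3 T-DM1 values were nearly the same and lay below every mobocertinib value (−0.80 ± 0.303; edgeR adjusted p = 0.356). Mcoln1, a lysosomal calcium channel gene, was the other with a log2 fold change of −0.44 ± 0.193. The membrane protein genes Lamp1 and Lamp2 had log2 fold changes of −0.17 ± 0.218 and −0.23 ± 0.295. Of 7 ABC efflux genes tested of 8, 0 were higher and 0 lower at an unadjusted p below 0.05. The 95% intervals of Abcb1a and Abcb1b, which in mice share the role of human MDR1, ran from −0.70 to 0.85 and from −0.62 to 1.57.

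FOXO factors and targets ran mainly the other way from ERK genes. Of 17 tested, 9 were lower and 2 higher at an unadjusted p below 0.05, against 4.15% and 6.75% of all genes. With no overlap 11 lay lower and 2 higher, against 9.22% and 9.76%. The median was −0.62, and DESeq2 called 4 lower and 2 higher, against 0.705% and 2.15% of all genes. Pdk4, which encodes a kinase that holds back pyruvate oxidation, was at 24.2, 6.44 and 10.5 CPM in T-DM1 nodules and 49.3, 49.7 and 78.1 CPM in mobocertinib nodules (−2.11 ± 0.460; edgeR adjusted p = 0.174). Klf15, a fasting-linked transcription factor gene, was at 22.6, 10.3 and 20.6 CPM in T-DM1 nodules and 103, 20.1 and 124 CPM in mobocertinib nodules. Its groups overlapped, since mobocertinib library 2 lay with the T-DM1 libraries. Txnip, an inhibitor of glucose uptake, was at 609, 818 and 534 CPM in T-DM1 nodules and 1116, 1220.3 and 1867 CPM in mobocertinib nodules, with no overlap (−1.10 ± 0.331; edgeR adjusted p = 0.244). Foxo4 was at 30.9, 25.8 and 41.0 CPM in T-DM1 nodules and 59.4, 65.4 and 76.5 CPM in mobocertinib nodules (−1.04 ± 0.236; edgeR adjusted p = 0.182), while Foxo1 stood at 0.01 ± 0.147 and Foxo3 at −0.33 ± 0.242. Bcl2l11, the gene of the death activator BIM, was at 24.9, 31.7 and 18.9 CPM in T-DM1 nodules and 42.6, 37.9 and 40.2 CPM in mobocertinib nodules, with no overlap (−0.68 ± 0.244; edgeR adjusted p = 0.324). Sesn1, Cdkn1b (the p27 gene), Irs2 and Bcl6 had log2 fold changes of −1.05, −0.62, −0.61 and −0.47. The 2 members higher at an unadjusted p below 0.05 were Irs1, an adaptor of insulin receptors (1.51 ± 0.360), and Trib2, a pseudokinase gene (1.40 ± 0.315).

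**Figure D4:**
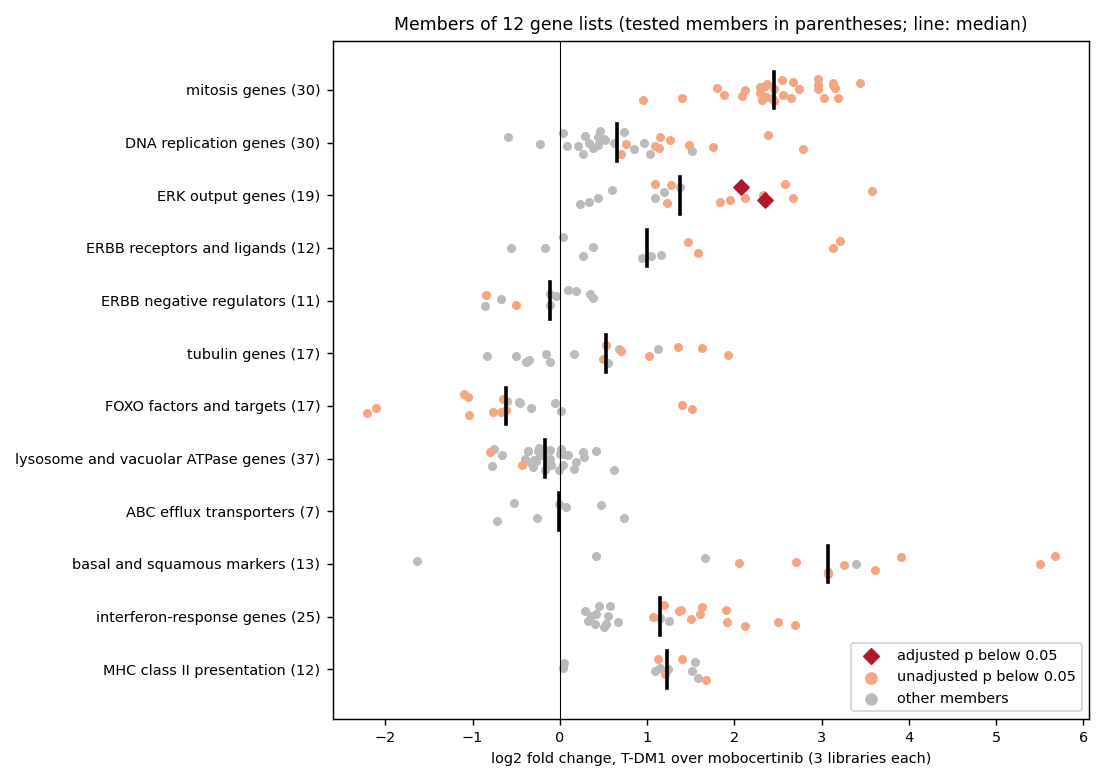
Each point is a tested member of 1 of 12 gene lists, placed by its log2 fold change of T-DM1 over mobocertinib (3 libraries each), with the number tested in parentheses and a black line at the list's median. Medians run from −0.62 for FOXO factors and targets to 3.08 for basal and squamous markers, the mitosis median is 2.46, and the only members past the adjusted threshold (red diamonds) are Dusp6 and Dusp5.

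Markers of basal and squamous epithelium had a median log2 fold change of 3.08 over 13 of 14 members tested. Of them 12 lay above 0 and 1 below, at −1.64. At an unadjusted p below 0.05, 9 were higher and 0 lower, against 6.75% and 4.15% of all genes. DESeq2 called 7 higher, against 2.15%, and 6 lay higher with no overlap, against 9.76%. Ivl, the involucrin gene of the squamous envelope, was at 33.95, 52.4 and 41.4 CPM in T-DM1 nodules and 2.99, 4.22 and 1.25 CPM in mobocertinib nodules (3.91 ± 0.773; edgeR adjusted p = 0.159). Sprr1a, another envelope gene, was at 41.6, 26.6 and 64.7 CPM in T-DM1 nodules and 2.55, 8.44 and 4.79 CPM in mobocertinib nodules (3.07 ± 0.633; edgeR adjusted p = 0.174). Both were higher in each T-DM1 library. Keratin genes were uneven among T-DM1 nodules: Krt6a was at 471, 55.2 and 409 CPM in T-DM1 nodules and 14.2, 2.99 and 1.33 CPM in mobocertinib nodules. Krt5 was at 262, 49.7 and 349 CPM in T-DM1 nodules and 39.0, 24.1 and 6.08 CPM in mobocertinib nodules. For Trp63, the basal cell transcription factor gene, T-DM1 values were 54.2, 7.57 and 42.6 CPM and mobocertinib values 8.97, 11.7 and 4.33 CPM, so T-DM1 library 2 lay inside the mobocertinib range. Krt4, a keratin gene of squamous linings, was at 307, 27.9 and 235 CPM in T-DM1 nodules and 5.59, 3.07 and 2.85 CPM in mobocertinib nodules (5.64 ± 0.980; edgeR adjusted p = 0.112). These keratins are thus high in T-DM1 libraries 1 and 3 and lower, though above the mobocertinib libraries for Krt4, Krt5 and Krt6a, in library 2.

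Lung lineage genes marked the samples as lung tissue and did not separate the treatments. Sftpc, the surfactant gene of alveolar type 2 cells, was at 3450, 50127 and 10841 CPM in T-DM1 nodules and 9818, 23979 and 24817 CPM in mobocertinib nodules. Scgb1a1, of club cells, and Ager, of alveolar type 1 cells, had log2 fold changes of −0.44 ± 0.759 and 0.21 ± 0.714. The summed alveolar type 2 markers ran from 14454 to 107137 CPM in T-DM1 nodules and from 26739 to 57193 CPM in mobocertinib nodules, highest in T-DM1 library 2. The part of this spread in the results was not tested.

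Interferon-response genes were higher in 2 of the 3 T-DM1 libraries. All 25 had a log2 fold change above 0, with a median of 1.14. At an unadjusted p below 0.05, 12 were higher, against 6.75% of all genes. But only 4 were free of overlap, a share of members above the 9.76% of all genes. In edgeR 0 passed the adjusted threshold, and DESeq2 called 4 higher, against 2.15% of all genes. Isg15, a ubiquitin-like modifier gene, was at 132, 27.2 and 72.8 CPM in T-DM1 nodules and 16.8, 15.1 and 3.99 CPM in mobocertinib nodules (2.69 ± 0.584; edgeR adjusted p = 0.174). Rsad2, the viperin gene, was at 22.01, 5.30 and 11.4 CPM in T-DM1 nodules and 1.44, 3.86 and 1.52 CPM in mobocertinib nodules. For Oasl2 the T-DM1 values were 120, 31.6 and 101 CPM, and mobocertinib library 2, at 33.4 CPM, lay above T-DM1 library 2. The summed list was 1749, 582.2 and 1253 CPM in T-DM1 nodules and 500, 823 and 415 CPM in mobocertinib nodules, so the groups overlapped. Without T-DM1 library 1, 6 members had an unadjusted p below 0.05 and the median was 0.63, and without mobocertinib library 3 the number was likewise 6.

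Isg15 is printed for its interferon-stimulated response element, the run on which the interferon-activated transcription complex is known to bind. The RefSeq window, chr4:156200769-156201068 on the minus strand of GRCm38.p6, has in capitals the overlapping matches to the element's core, which is GAAA, then any 2 bases, then GAAA.

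Isg15: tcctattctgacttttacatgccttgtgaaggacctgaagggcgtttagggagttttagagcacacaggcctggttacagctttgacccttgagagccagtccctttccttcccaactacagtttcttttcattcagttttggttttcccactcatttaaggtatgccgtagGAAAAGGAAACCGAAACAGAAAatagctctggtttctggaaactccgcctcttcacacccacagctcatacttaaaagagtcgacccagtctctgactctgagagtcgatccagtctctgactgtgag

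The matches begin at −78, −72 and −66. On either strand the core stood in 13 of the 19 interferon-response genes with a window (68.4%), against 3.18% of the windows of all genes tested.

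Antigen presentation genes and immune cell markers spread widely among T-DM1 nodules. All 12 genes of MHC class II presentation had a log2 fold change above 0, with a median of 1.23. Of them 4 had an unadjusted p below 0.05, against 6.75% of all genes higher at that threshold. Ciita, the master activator gene of the class, was at 35.8, 24.6 and 21.8 CPM in T-DM1 nodules and 1.66, 13.3 and 10.8 CPM in mobocertinib nodules, with no overlap (1.67 ± 0.652; edgeR adjusted p = 0.376). The summed list was 5302, 8560 and 3759 CPM in T-DM1 nodules and 1192, 3958 and 3340 CPM in mobocertinib nodules, which overlapped, and without mobocertinib library 1 only 1 member had an unadjusted p below 0.05. H2-Aa, a class II chain gene, was at 942, 1312 and 578 CPM in T-DM1 nodules and 136, 508 and 553 CPM in mobocertinib nodules. Summed B and plasma cell markers were 13544, 3248 and 2268 CPM in T-DM1 nodules and 1588, 1679 and 1544 CPM in mobocertinib nodules, and dendritic cell markers 265, 78.2 and 147 CPM in T-DM1 nodules and 48.0, 43.1 and 38.8 CPM in mobocertinib nodules. Both sums were free of overlap, with T-DM1 library 1 the highest of the 6 libraries. Member by member the B and plasma cell list was not: 2 of its 14 genes were free of overlap and 1 had an unadjusted p below 0.05. Of all genes, 9.76% and 6.75% were higher on these measures. The median log2 fold change of the B and plasma cell list was 1.81, and −0.43 without T-DM1 library 1. Of the 13 dendritic cell markers 4 were free of overlap, against the same 9.76%. Their median was 1.77, and 0.48 without that library. T cell and cytotoxic markers were 144, 38.7 and 35.2 CPM in T-DM1 nodules and 16.5, 50.5 and 40.0 CPM in mobocertinib nodules, which overlapped, and Cd8a was under 3 CPM in all 6 libraries. The part of these cells in the interferon and class II values was not tested.

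**Figure D5:**
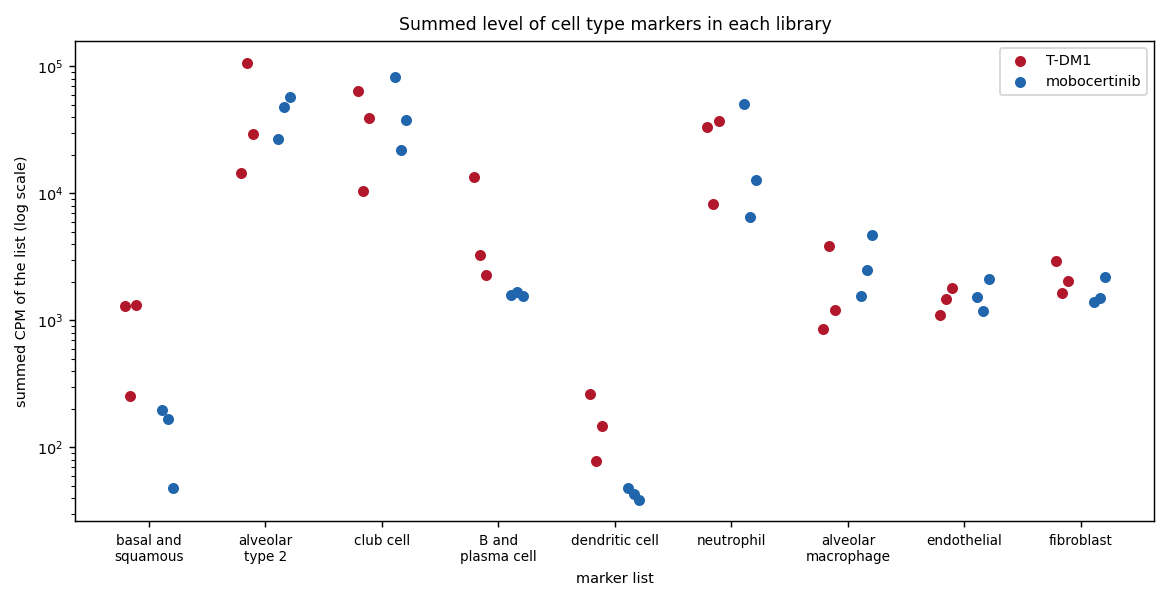
Summed CPM (log scale) of 9 cell type marker lists in each library, with T-DM1 libraries in red to the left and mobocertinib libraries in blue to the right. Basal and squamous, B and plasma cell and dendritic cell sums are free of overlap between the groups, and for the alveolar, club, neutrophil, macrophage, endothelial and fibroblast lists the groups overlap.

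Further genes stood near the top by p. Of these, Atp7b, Hunk and Gjb2 are in none of the lists, and Cxcl3 is among the chemokine genes. Atp7b, a copper transporter gene, was at 33.8, 41.3 and 39.0 CPM in T-DM1 nodules and 260, 144 and 235 CPM in mobocertinib nodules. It lay lowest in T-DM1 nodules with no overlap and had a log2 fold change of −2.49 ± 0.360 (edgeR adjusted p = 0.0579), with 98.3, 117 and 140 CPM in combination nodules. Hunk, a kinase gene linked to HER2-driven mammary tumors in mice, was at 20.8, 30.4 and 19.9 CPM in T-DM1 nodules and 4.82, 3.47 and 4.75 CPM in mobocertinib nodules (2.45 ± 0.353; edgeR adjusted p = 0.0579). Gjb2, which encodes the gap junction protein connexin 26, was at 49.2, 28.96 and 32.1 CPM in T-DM1 nodules and 3.21, 6.21 and 3.57 CPM in mobocertinib nodules (3.08 ± 0.449; edgeR adjusted p = 0.0579). The neutrophil chemokine gene Cxcl3 held 197, 1322 and 104 counts in T-DM1 libraries and 0, 3 and 2 counts in mobocertinib libraries, and is given without a fold because of these low counts. Hunk, Gjb2 and Cxcl3 were each higher in every T-DM1 library.

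No source used here says whether counting took account of strand, which leaves a gene uncertain where its exons overlap another gene's. For genes named above, the overlapping share of exon bases was 57.2% for Fosl1, 33% for Phlda1, 30.9% for Irs1, 27.4% for Tuba1b, 26.2% for Tuba1a, 24.8% for Krt6a, 23.4% for Ccnd1, 22.8% for Ube2c, 22.1% for Dusp5, 19.4% for Txnip, 12.6% for Xist and 12.5% for Ccna2. It was 10.1% or less for each other gene named above, and Dusp6 shared 0%.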

How the data were processed

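RNA was sequenced from snap-frozen nodules, as total RNA. The authors deposited whole-number counts for 55291 gene symbols and TPM values for 47606 genes, which they scaled for transcript length and library size. The submitters' processing notes list STAR, RSEM and mm10 without saying what each did, and name neither annotation nor strandedness. Counts of the T-DM1, mobocertinib, combination and resistant libraries (12) were fitted in edgeR 4.0.16 under R 4.3.3, with filterByExpr, TMM factors and the robust quasi-likelihood test, leaving 8 residual degrees of freedom. The contrast was T-DM1 minus mobocertinib, with Benjamini-Hochberg adjustment over 16875 genes and a threshold of 0.05. SE is the log2 fold change divided by the square root of F, and intervals are 95%. CPM values are TMM-normalized. TPM served to compare levels between genes. Totals of the fitted libraries were 19.3 to 31.3 M counts.

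Named genes were the called genes, the first 2 members of lists bearing on the drugs where none was called, and a panel; others, chosen after their values were seen, are Areg, Ereg, Hbegf, Btc, Tgfa, Dusp4, Spred2, Etv1, Fosl1, Phlda1, Nr4a1, Cblb, Lrig2, Pdk4, Klf15, Txnip, Foxo4, Irs1, Trib2, Bcl2l11, Sesn1, Cdkn1b, the mitosis and replication genes except Cdk1, Ccna2, Cdc20, Mki67 and Top2a, Ccnd2, the tubulin genes except Tuba1a, Tuba1b and Tubb3, Mcoln1, the genes of keratins, squamous envelope, Trp63, interferon response and class II, Atp7b, Hunk, Gjb2, Cxcl3 and those of the last section. The members and lists were chosen with earlier results of these data known. Gene positions and shared exon bases came from GENCODE M21, and promoter windows from RefSeq (GRCm38.p6); 12242 of the tested genes had a window. On simulated counts of 16618 genes for this comparison, the test recovered 6.25%, 42%, 70% and 90% of genes given 2-, 4-, 8- and 16-fold differences, and made 6 false calls. Alternatives were RLE and upper-quartile factors, other filters, no robust estimation, glmTreat, DESeq2 1.42.0, limma 3.58.1 (voom, and trend on log2(TPM + 1)), 6 or 14 libraries in the fit, and leaving out each library.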

Additional observations from a re-analysis of the deposited data

How the results depend on the processing

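The number of genes called was 2 (2 higher, 0 lower), and it depended on the method. It was 0 with upper-quartile factors, without robust estimation, with glmTreat and with the 6 libraries alone. With no filter beyond 1 count it was 15 (13 higher, 2 lower), in DESeq2 482 (363 and 119), in limma-voom 5 (4 and 1), on log2(TPM + 1) 16 (13 and 3) and with all 14 libraries 5 (4 and 1). RLE factors and a filter at 1 CPM gave 2. Leaving out 1 library gave 0 to 21 calls (0 to 20 higher, 0 to 1 lower), with 21 only without T-DM1 library 2. The cause was not tested. Dusp6 and Dusp5 kept their direction in all 17 alternatives and were each called in 8, at log2 fold changes from 1.98 to 2.23 and from 1.997 to 2.60.

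Among named genes, 22 values changed sign, all of genes with no call. Foxo1 was at −0.00924, −0.00716 and −0.00612 with upper-quartile factors, no filter and 6 libraries, and at −0.031 to 0.036 without 1 library. Sftpc and Ager were at −0.57 and −0.40 in limma-voom, at −0.56 and −0.37 on log2(TPM + 1), and at −1.45 to 0.64 and −0.84 to 0.73 without 1 library. Abcb1b was at −0.024 on log2(TPM + 1). Without 1 library, Abcb1a ranged over −0.18 to 0.51, Cd8a −0.0031 to 1.31, Lrig1 −0.32 to 0.097, Etv5 −0.061 to 1.63, Cdkn1a −0.50 to 0.12 and Erbb2 −0.35 to 0.027. No paired analysis was possible because no label links a T-DM1 library to a mobocertinib library.

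With 3 libraries a group, 42% of simulated 4-fold changes were called. Of the 6 libraries, summed B and plasma cell markers were highest in T-DM1 library 1 and summed alveolar type 2 markers in T-DM1 library 2, and sex-linked genes differ between nodules.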

Other observations

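Several gene groups not described above were also higher in T-DM1 nodules in part. For comparison, 6.75% of all genes were higher and 4.15% lower at an unadjusted p below 0.05. Of 20 glycolysis and hypoxia genes, 7 were higher and 0 lower at an unadjusted p below 0.05, with a median log2 fold change of 0.70. Hk2, the hexokinase gene of the first step of glycolysis, was at 54.3, 81.5 and 45.1 CPM in T-DM1 nodules and 25.1, 14.1 and 28.2 CPM in mobocertinib nodules (1.42 ± 0.394; edgeR adjusted p = 0.225). Ldha, lactate dehydrogenase, was at 1973, 1661 and 1614 CPM in T-DM1 nodules and 1453, 422 and 616 CPM in mobocertinib nodules. Neither gene overlapped between the groups. Egln3, an oxygen sensor gene induced by hypoxia, was at 176, 17.03 and 61.4 CPM in T-DM1 nodules and 13.6, 14.1 and 5.43 CPM in mobocertinib nodules. Of 20 ribosome biogenesis and MYC genes, 9 were higher and 1 lower at an unadjusted p below 0.05, with a median of 0.48, and Nop58, a nucleolar protein gene, was at 59.9, 40.0 and 38.1 CPM in T-DM1 nodules and 28.4, 18.8 and 19.4 CPM in mobocertinib nodules. Of 23 oxidative phosphorylation genes, 0 were higher and 0 lower at an unadjusted p below 0.05 in edgeR, 0 were called by DESeq2 and limma-voom, and the median was −0.07.

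Of 27 chemokine genes, 8 were higher and 0 lower at an unadjusted p below 0.05, with a median of 1.12. Of 12 immune checkpoint genes the counts were 4 and 0. The shares of all genes at that threshold were 6.75% and 4.15%. Ido1, which encodes an enzyme that degrades tryptophan, was at 222, 23.4 and 70.1 CPM in T-DM1 nodules and 2.22, 6.85 and 1.48 CPM in mobocertinib nodules (4.90 ± 1.07; edgeR adjusted p = 0.174). Cd276, the B7-H3 gene, was at 25.8, 27.5 and 31.8 CPM in T-DM1 nodules and 11.1, 13.4 and 8.47 CPM in mobocertinib nodules, with no overlap. Cd274, the PD-L1 gene, was at 17.02, 22.2 and 19.2 CPM in T-DM1 nodules and 7.53, 16.5 and 19.8 CPM in mobocertinib nodules, and the groups overlapped. Slc7a11, the cystine transporter gene induced by ATF4, was at 17.1, 118 and 25.9 CPM in T-DM1 nodules and 7.15, 4.90 and 7.33 CPM in mobocertinib nodules, highest in T-DM1 library 2. Cd177, a neutrophil surface gene, was at 56.1, 435 and 41.1 CPM in T-DM1 nodules and 12.3, 8.96 and 3.72 CPM in mobocertinib nodules, while the summed neutrophil markers overlapped. Fscn1, a gene of mature dendritic cells and of some carcinoma cells, was at 167, 47.9 and 123 CPM in T-DM1 nodules and 37.1, 20.6 and 15.6 CPM in mobocertinib nodules. Exon bases overlapping another gene made up 14.1% of Cd274 and 11.4% of Cd276.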
